A study of Mus musculus with 15 samples.

Results

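The genes described are 9 members of the JAK and STAT families: the kinase genes Jak1, Jak2 and Jak3 and the transcription factor genes Stat2, Stat3, Stat4, Stat5a, Stat5b and Stat6. They were taken by symbol from the 55421 mouse genes of a table of transcript abundance in 15 poly(A) RNA-seq libraries, and each symbol matched 1 gene. The unit is TPM, the share of a library's transcripts that a gene takes once transcript length is corrected for, so levels can be compared between genes. The cells were CD4 T cells sorted as naive from mouse spleen and lymph node, activated on plates through CD3 and CD28, and harvested on day 5. There were 5 groups of 3 libraries. DMSO TH17 and Srci1 TH17 cultures came from mice labelled wild type and were grown with TGFβ at 2.5 ng/ml and IL-6, IL-1β and IL-23 at 10 ng/ml each. STAT3-knockout TH17 cultures came from STAT3-fl/fl CD4-cre mice, in which a Cre driven by Cd4 acts on floxed Stat3 in T cells, and received the same cytokines and DMSO. DMSO Treg and Srci1 Treg cultures were wild type and were grown with 200 U/ml IL-2 and TGFβ, which the labels give as 0.5 ng/ml or another indicated dose. IFNγ and IL-4 were blocked with antibodies in all cultures. The compound Srci1, for which the labels give only this code name, was added 24 h after plating, at a dose not given in the sources used here. TH17 and Treg cultures thus differ in cytokines and TGFβ dose as well as in cell type. Separate animals are not named for the replicates, so p-values reflect only how far these libraries spread, and that spread may be technical. Whether the wild-type mice carried the Cre is not given either.

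JAK kinases sit on the inner side of cytokine receptors. When a cytokine joins its receptor chains, the kinases phosphorylate the receptor, STAT proteins dock there, are phosphorylated in turn, pair up and enter the nucleus as transcription factors. JAK3 works with the common gamma chain, which the receptors for IL-2, IL-4, IL-7 and IL-21 share. JAK1 serves most of these and the IL-6 and interferon receptors, and JAK2 serves the IL-12, IL-23 and IFNγ receptors. In T helper cells STAT3 is best known for IL-6, IL-21 and IL-23 and the TH17 program. STAT5A and STAT5B are known for IL-2 and Foxp3, STAT4 for IL-12 and TH1 genes, STAT6 for IL-4 and TH2 genes, and STAT2 for type I interferon.

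The members lie in a few places on GRCm38. Stat5b (chromosome 11, 100780731 to 100850724, minus strand), Stat5a (100859351 to 100885169, plus strand) and Stat3 (100885098 to 100939540, minus strand) are neighbours with no coding gene between them. Stat3 and Stat5a overlap by 72 bases at their 3′ ends on opposite strands, so reads there cannot be told apart without strand. Stat6 (chromosome 10, 127642986 to 127660957, plus strand) and Stat2 (128270559 to 128292849, plus strand) lie 609.6 kb apart with 26 coding genes between them. Stat4 lies on chromosome 1 (51987148 to 52107189, plus strand), Jak1 on chromosome 4 (101152367 to 101265282, minus strand), Jak3 on chromosome 8 (71676296 to 71690575, plus strand) and Jak2 on chromosome 19 (29251828 to 29313080, plus strand). An exon of Stat6 overlaps the opposite-strand gene Nab2, which reached 116.4 TPM in these libraries, and exons of Jak1 and Jak3 overlap Raver2 and Insl3, which reached no more than 1.26 and 0.74 TPM. Stat5a and Stat5b share 608 windows of 50 bases, 8.21% of those in Stat5a transcripts and 11% of those in Stat5b transcripts, so their separate values rest partly on how shared reads were divided. Stat4 shares 21.7% of its windows with the unnamed model Gm28177, whose highest value was 0.11 TPM. Jak3 shared 6.93% with other genes and the other members less than 1%.

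Promoters of all 9 members were in the RefSeq table (GRCm38.p6), 12 in all. They were searched on both strands for the STAT site TTCNNNGAA, its longer STAT6 form (TTC and GAA with any 4 bases between), the interferon-stimulated response element (GAAA and GAAA with any 2 bases between) and the GC box GGGCGG, over 250 bases before and 50 after the start. These occur in 8.3%, 6.95%, 3.44% and 35.7% of the 32851 promoters in the table, and the first is in none of the 12. The 250 bases before the start are shown for Stat2, which is read beside interferon-response genes in the results. They are also shown for a second start of Stat4 that also holds the interferon element. Stat3 and Jak3 are shown as the pair of members whose levels were most alike over all libraries, those with Stat3 deleted included. Capitals mark the matches. In Stat2 (chr10:128270248-128270497, plus strand) they are the interferon element at -222, the STAT6 form at -210 and GC boxes at -139 and -125, counted from the start. In Stat4 (chr1:52007990-52008239, plus strand) the interferon element begins at -97. Stat3 (chr11:100939541-100939790, minus strand) has a GC box at -69 and Jak3 (chr8:71676133-71676382, plus strand) one at -214. GC boxes were also found in Stat5a, Stat5b, Jak1 and Jak2. None of the marked motifs overlap each other, and a match is a description of the letters only.
Stat2: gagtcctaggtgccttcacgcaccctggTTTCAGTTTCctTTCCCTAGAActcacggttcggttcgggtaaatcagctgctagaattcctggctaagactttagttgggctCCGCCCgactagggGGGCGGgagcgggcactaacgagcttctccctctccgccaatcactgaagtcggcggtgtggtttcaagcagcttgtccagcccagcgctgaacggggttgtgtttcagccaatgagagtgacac
Stat4: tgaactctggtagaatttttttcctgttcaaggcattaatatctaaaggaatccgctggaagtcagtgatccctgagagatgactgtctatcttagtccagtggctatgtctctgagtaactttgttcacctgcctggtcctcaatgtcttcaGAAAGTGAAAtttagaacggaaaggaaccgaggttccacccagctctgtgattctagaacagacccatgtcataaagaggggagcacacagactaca
Stat3: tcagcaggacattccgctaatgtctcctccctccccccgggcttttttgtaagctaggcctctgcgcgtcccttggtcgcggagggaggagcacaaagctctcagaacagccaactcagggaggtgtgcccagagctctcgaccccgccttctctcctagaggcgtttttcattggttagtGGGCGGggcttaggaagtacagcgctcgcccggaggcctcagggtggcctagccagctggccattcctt
Jak3: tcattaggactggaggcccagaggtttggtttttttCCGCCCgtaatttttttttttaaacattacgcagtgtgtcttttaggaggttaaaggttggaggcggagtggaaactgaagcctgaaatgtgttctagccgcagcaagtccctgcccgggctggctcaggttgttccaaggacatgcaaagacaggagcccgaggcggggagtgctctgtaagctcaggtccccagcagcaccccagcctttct

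Each library summed to about the same total, so depth is unknown, and between 11240 and 11889 genes reached 1 TPM in each. All 9 members passed the filter, and all were above 1 TPM in all 15 libraries, from 8.94 TPM (Stat4 in a knockout library) to 222 TPM (Stat5a in a DMSO TH17 library). DMSO TH17 replicate 3 stood apart: it held the lowest value of its group for 9 of 9 members, with 663.4 TPM over the members against 896 and 890.7 TPM in replicates 1 and 2. It also held the fewest genes at 1 TPM and the largest share of ribosomal protein transcripts, 30.4%, so the members' differences from this group are also given without it. The steps in the order of groups, the family shares and the pathway lists are given with it. That ribosomal share was 28.4 ± 1.97% (SD, n = 3) in DMSO TH17, 28.7 ± 1.22% in knockout, 22.1 ± 0.58% in Srci1 TH17, 25 ± 0.17% in DMSO Treg and 20.9 ± 0.49% in Srci1 Treg libraries. It moved with the groups, and TPM is a share, so the members' results in each comparison are also given after median-of-ratios scaling, which sets the median gene level between libraries. The 8 CD4 T cell markers were all above 0 and summed to between 2617 and 4078 TPM per library, with Cd3e at group means of 197.5 to 397.5 TPM and Cd4 at 190.2 to 340.3 TPM. The knockout libraries held the lowest sums, 2617 to 2797 TPM against 3504 TPM or more elsewhere, and Cd2 and Thy1 stood at 141.5 ± 9.66 and 511 ± 25.3 TPM there against 1152 ± 65.1 and 974.4 ± 70.2 TPM in DMSO TH17. Cd3e and Cd3g went the other way, at 397.5 ± 29.7 and 760.8 ± 45.2 TPM against 197.5 ± 2.45 and 539.5 ± 17.3 TPM. Of the 8 markers, 3 were called higher and 3 lower in the knockout than in DMSO TH17, where 30.9% and 18.9% of all tested genes were. Il17a and Foxp3, which define TH17 and Treg cells, stood at 1338 ± 51.5 and 11.7 ± 2.15 TPM in DMSO TH17 and at 0.027 ± 0.046 and 129.7 ± 2.23 TPM in DMSO Treg. In Srci1 TH17 and knockout libraries Il17a stood at 40.4 ± 3.31 and 10.2 ± 1.45 TPM. Of 7 TH17 markers, 6 were called lower and 0 higher with Srci1 than in DMSO TH17, and 6 lower and 1 higher in the knockout. With Srci1 in TH17 cultures, 7.08% of all tested genes were called lower and 33.8% higher. Foxp3 stood at 203.6 ± 8.37 TPM in Srci1 TH17 and 204.6 ± 17.6 TPM in knockout libraries. The rest of the 8-gene Treg list did not all follow it in the knockout, where 4 genes were called higher and 4 lower than in DMSO TH17 and the sum was 1080 to 1246 TPM against 1254 to 1578 TPM. With Srci1 in TH17 cultures 6 were higher and 1 lower, with a sum of 2016 to 2201 TPM. Ncr1, an NK cell marker, was listed at 0 in all libraries, and the myeloid marker Lyz2 at no more than 0.26 TPM. The 6 B cell markers summed to 14.1 to 15.4 TPM in knockout libraries against 0.57 to 3.86 TPM elsewhere. The 8 myeloid markers summed to 13 to 15 TPM against 1.82 to 7.15 TPM, and Cd8a stood at 4.74 ± 0.59 TPM against 0.017 ± 0.029 TPM in DMSO TH17. Their part in the results on the knockout was not tested. The 7 CD8 and NK markers summed to 21.2 to 25.2 TPM in knockout and 89.8 to 117.9 TPM in Srci1 TH17 libraries, beside 50 to 53.2 TPM in DMSO TH17. In Treg cultures they summed to 37.3 to 39.2 TPM with DMSO and 23.7 to 24.3 TPM with Srci1. Most of the sum in DMSO and Srci1 TH17 was Klrd1 (42.8 ± 1.88 and 88.9 ± 13.4 TPM), which stood at 1.27 ± 0.5 TPM in the knockout. Of the 5 tested markers on this list, 3 were called higher and 1 lower in the knockout than in DMSO TH17. The 3 gamma delta T cell markers found in the table summed to 29 to 34.6 TPM in Srci1 Treg libraries and to no more than 8.72 TPM in any other library. Nearly all of that sum was Tcrg-C1 (31.3 ± 2.82 TPM), while Trdc and Sox13 stood at 0.79 ± 0.26 and 0.053 ± 0.055 TPM there.

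**Figure D1:**
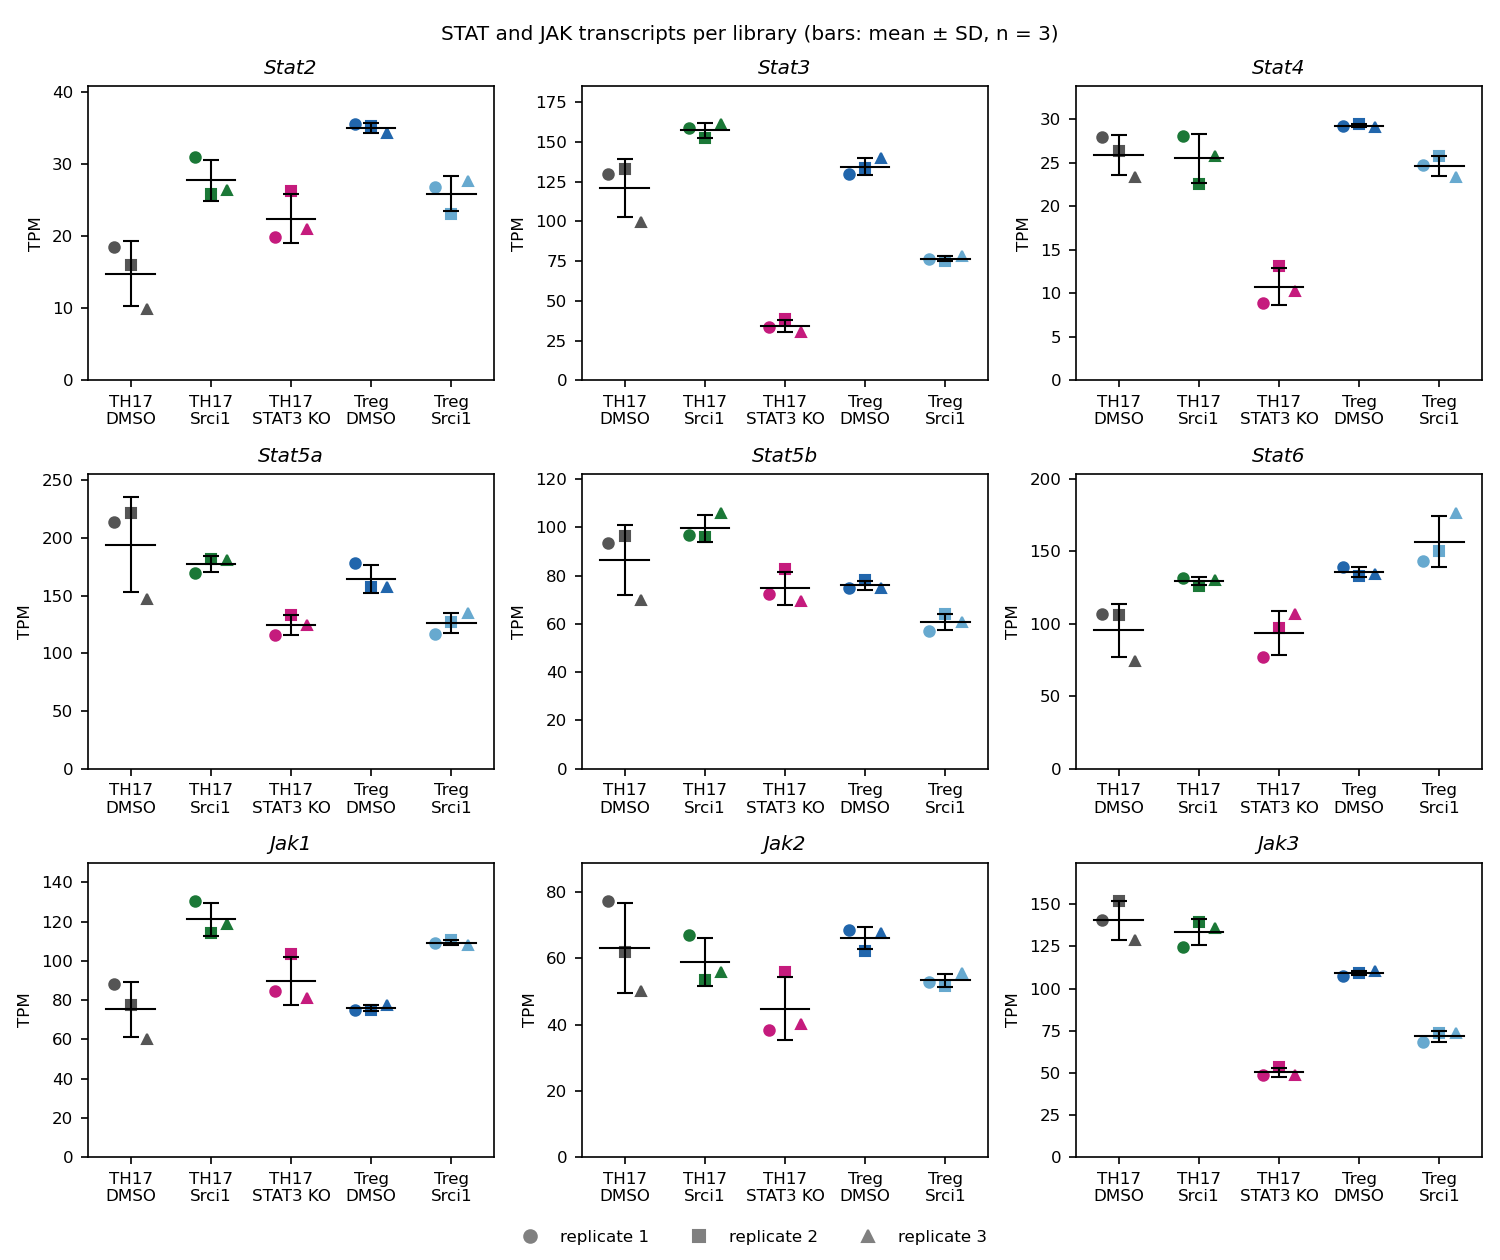
TPM of each of the 9 genes (vertical axis, starting at 0) in the 15 libraries by group (horizontal axis). Symbols are replicates and black bars the mean ± SD of 3 libraries. Stat3, Stat4 and Jak3 are lowest in the knockout, Jak1 is highest with Srci1 in both cultures, and the triangle of DMSO TH17 replicate 3 is the lowest of its group in all 9 panels.

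For each member the groups were ordered by mean, and the 36 steps between neighbouring groups were tested in the same fit, in which 10 were called at an adjusted p under 0.05. Of all tested genes, 49.7% were called between knockout and DMSO TH17, 40.9% between Srci1 and DMSO TH17, 27.2% between the Treg groups and 44.8% between DMSO Treg and DMSO TH17. The knockout differed from DMSO Treg at 42% of tested genes and from Srci1 Treg at 47.4%, Srci1 TH17 differed from DMSO Treg at 35.2% and from Srci1 Treg at 36.1%, and Srci1 Treg differed from DMSO TH17 at 59%. Of the 10 called steps 6 were called in every alternative setting, and of the 26 others 12 were called in at least 1.

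Among the kinases, Jak3 varied most. Jak3 held 140.9, 151.9 and 128.7 TPM in DMSO TH17 and 124.7, 139.7 and 135.7 TPM in Srci1 TH17 libraries. DMSO Treg libraries held 107.7, 109.5 and 110.3 TPM, Srci1 Treg libraries 68.1, 73.8 and 73.4 TPM and knockout libraries 48.7, 53.6 and 48.6 TPM. DMSO and Srci1 TH17 overlapped and did not differ beyond their spread (limma adjusted p = 0.441), while each further step down, from Srci1 TH17 to DMSO Treg to Srci1 Treg to knockout, was called (limma adjusted p = 0.00596, 3.43e-05 and 6.14e-05). The group means thus spanned 2.79-fold, from 140.5 ± 11.6 to 50.3 ± 2.88 TPM (SD, n = 3).

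Jak1 followed another order. It held 130.4, 114.1 and 118.8 TPM in Srci1 TH17 and 109.2, 110.4 and 107.9 TPM in Srci1 Treg libraries, against 88, 77.5 and 60.2 TPM in DMSO TH17 and 75.1, 74.7 and 77.7 TPM in DMSO Treg libraries. Knockout libraries held 84.8, 103.7 and 80.9 TPM, with a mean between these and 2 of the 3 below the highest DMSO TH17 library. All 6 Srci1 libraries were above all 9 others, although no neighbouring pair of groups in this order was called (limma adjusted p = 0.363, 0.0601, 0.13 and 0.874 from the highest step down). Jak2 was the least variable member, with group means from 66 ± 3.4 TPM in DMSO Treg to 44.8 ± 9.58 TPM in knockout libraries, a 1.47-fold range. Its libraries held 77.2, 62 and 50 TPM in DMSO TH17, 67.1, 53.4 and 56 TPM in Srci1 TH17 and 38.3, 55.8 and 40.3 TPM in the knockout. In Treg cultures they held 68.5, 62.1 and 67.5 TPM with DMSO and 53, 51.6 and 55.5 TPM with Srci1. The TH17 groups overlapped one another for Jak2, and no neighbouring step was called.

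Stat3 ranged 4.59-fold between Srci1 TH17 (157.2 ± 4.49 TPM) and knockout (34.2 ± 3.9 TPM), the group in which it was deleted. That this was the widest range of the STAT genes thus follows from the design. Over the 4 wild-type groups Stat3 ranged 2.05-fold, from Srci1 TH17 to Srci1 Treg, and Stat2 2.37-fold, from DMSO Treg to DMSO TH17. In the Srci1 TH17, DMSO Treg and DMSO TH17 groups, the 3 highest, no neighbouring step was called (limma adjusted p = 0.101 and 0.203). The steps from DMSO TH17 to Srci1 Treg (76.5 ± 1.58 TPM) and on to the knockout were called (limma adjusted p = 0.000101 and 7.46e-07). Residual Stat3 transcript in the knockout was 30.7 to 38.4 TPM, and a gene-level value can include transcript that lacks only the deleted exons, so it is no measure of STAT3 protein.

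Stat4 was lower in the knockout than in the 4 wild-type groups, among which no neighbouring step was called. It held 28, 26.3 and 23.4 TPM in DMSO TH17, 28.1, 22.6 and 25.8 TPM in Srci1 TH17 and 8.94, 13.1 and 10.2 TPM in knockout libraries. In Treg cultures it held 29.2, 29.4 and 29.1 TPM with DMSO and 24.7, 25.7 and 23.4 TPM with Srci1. All 3 knockout libraries were below all 12 others, and the step to the knockout was the only one called (Srci1 Treg against knockout, limma adjusted p = 4.95e-06).

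Stat2, the member with the lowest DMSO TH17 level, held 18.6, 16 and 9.85 TPM there against 31, 25.8 and 26.4 TPM in Srci1 TH17 libraries. Knockout libraries held 19.9, 26.3 and 21 TPM. DMSO Treg libraries were the highest at 35.5, 35.3 and 34.3 TPM, and Srci1 Treg libraries held 26.8, 23.1 and 27.7 TPM. DMSO Treg and DMSO TH17 libraries stood above and below all others, and only the last step in the order, from knockout to DMSO TH17, was called (limma adjusted p = 0.0113).

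Stat5a was the most abundant member in DMSO TH17, Srci1 TH17, DMSO Treg and knockout libraries, and Stat6 was the most abundant in Srci1 Treg. Stat5a libraries held 213.8, 222 and 147.2 TPM in DMSO TH17, 170, 181.8 and 181.3 TPM in Srci1 TH17 and 116.2, 133.6 and 124.5 TPM in the knockout. They held 178.9, 157.9 and 157.5 TPM in DMSO Treg and 117.1, 126.9 and 134.9 TPM in Srci1 Treg. The groups fell into a higher set of 3 (DMSO TH17, Srci1 TH17, DMSO Treg) and a lower pair (Srci1 Treg, knockout), with the step between them called (limma adjusted p = 0.0365). Its paralog Stat5b was lower in each of the 15 libraries, from 99.6 ± 5.54 TPM in Srci1 TH17 to 60.6 ± 3.36 TPM in Srci1 Treg libraries, and only the step from knockout (74.8 ± 6.88 TPM) to Srci1 Treg was called (limma adjusted p = 0.0342, up to 0.126 over the settings, with 5 of 20 above 0.05). Srci1 Treg libraries held 57.2, 63.9 and 60.9 TPM of Stat5b, below all 12 others. Stat6 held 143.2, 150.2 and 176.4 TPM in Srci1 Treg, 139.3, 132.6 and 134.3 TPM in DMSO Treg and 131.3, 126 and 130.2 TPM in Srci1 TH17 libraries. It held 106.5, 105.7 and 74.4 TPM in DMSO TH17 and 77.1, 97 and 106.5 TPM in the knockout, and the step between these upper 3 and lower 2 groups was the only one called (limma adjusted p = 0.0174).

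Loss of STAT3 in TH17 cultures was measured first for Stat3 itself, the check of the labels. Stat3 was 34.2 ± 3.9 TPM against 120.8 ± 18.3 TPM in wild-type DMSO TH17. Beside it, the transcripts of the common gamma chain kinase Jak3 and of Stat4 were also below every wild-type library, 2.79-fold and 2.4-fold lower (log2 difference -1.46 ± 0.071 SE and -1.2 ± 0.12 SE, limma adjusted p = 7.48e-10 and 1.64e-06). Stat5a fell 1.56-fold (log2 difference -0.61, limma adjusted p = 0.000959) and Jak2 1.41-fold (-0.48, adjusted p = 0.0184). Stat2 rose from 14.8 ± 4.47 to 22.4 ± 3.39 TPM (log2 difference 0.60, limma adjusted p = 0.0113).

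In all, 1 of 9 members rose and 5 fell in the knockout, a call for 6 of 9 (66.7%), where 49.7% of the 12800 tested genes were called (30.9% higher, 18.9% lower). The 5 falls include that of Stat3, the gene deleted in the knockout. The median difference over the members was -0.48 on the log2 scale and that over all tested genes 0.13. In a mixed culture, fewer cells of a type and less RNA per cell cannot be told apart. Stat5b (-0.20, 95% interval -0.43 to 0.029), Stat6 (-0.024, interval -0.32 to 0.27) and Jak1 (0.26, interval 0.0074 to 0.51) were not called (limma adjusted p = 0.136, 0.897 and 0.082).

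Without DMSO TH17 replicate 3 the falls of Stat3 (-1.91), Jak3 (-1.52), Stat4 (-1.27), Stat5a (-0.80) and Jak2 (-0.64) stood, that of Stat5b was also called (-0.34, limma adjusted p = 0.00276), and the rise of Stat2 was smaller (0.35, adjusted p = 0.0338). The Stat2 call ended without knockout replicate 2 (limma adjusted p = 0.0544) and in a fit of these 2 groups alone (0.083). Jak2 lost its call when knockout replicate 1 (limma adjusted p = 0.0794), knockout replicate 3 (0.068) or DMSO TH17 replicate 1 (0.0868) was left out, and with the compared groups alone (0.0968). Jak1 was called higher without DMSO TH17 replicate 1 (0.38, limma adjusted p = 0.0132). After median-of-ratios scaling 1 member was higher and 6 lower, Stat5b having joined the falls (limma adjusted p = 0.000902).

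**Figure D2:**
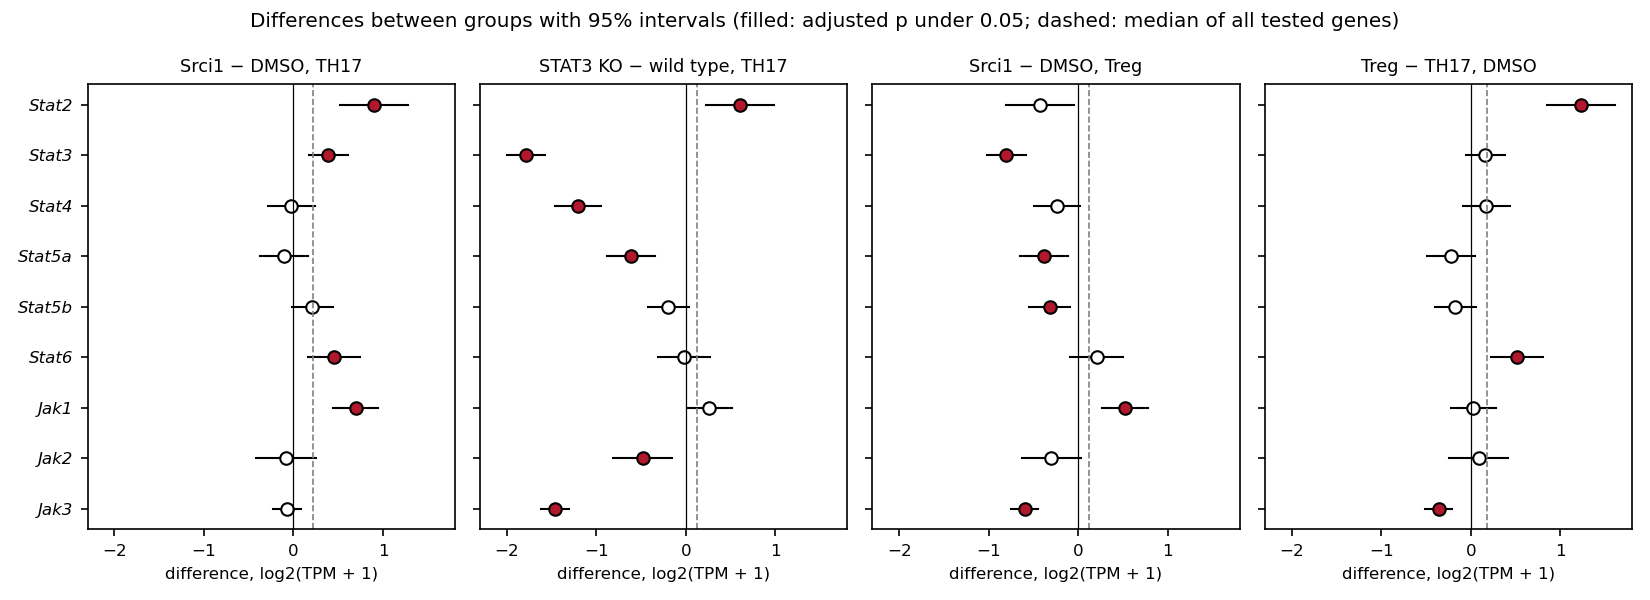
Difference of group means on the log2(TPM + 1) scale (horizontal axis) for each of the 9 genes in 4 comparisons, with 95% intervals; filled points passed the test and dashed lines mark the median of all tested genes. In the knockout Stat3, Jak3 and Stat4 lie furthest to the left at -1.78, -1.46 and -1.2, and Stat2 and Jak1 are the points furthest to the right with Srci1 in TH17 cultures at 0.90 and 0.69.

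With Srci1 in TH17 cultures, 4 members rose and none fell, while 33.8% of tested genes were called higher, 7.08% lower and 40.9% either way. Stat2 rose 1.88-fold, from 14.8 ± 4.47 to 27.7 ± 2.85 TPM (log2 difference 0.90 ± 0.18 SE, limma adjusted p = 0.00124). Jak1 rose 1.61-fold, from 75.2 ± 14 to 121.1 ± 8.4 TPM (0.69 ± 0.12 SE, adjusted p = 0.000461). Stat6 rose from 95.6 ± 18.3 to 129.2 ± 2.83 TPM (0.45, limma adjusted p = 0.0174), and Stat3 rose 1.3-fold (0.39, adjusted p = 0.00731). In these 4 of 9 members every Srci1 library was above every DMSO library, where 48.9% of all tested genes did not overlap in either direction.

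The median of all tested genes lay 0.21 above 0 in this comparison, and relative to it the rises were 0.69 for Stat2, 0.48 for Jak1, 0.24 for Stat6 and 0.17 for Stat3. With median-of-ratios scaling the median was near 0, and the split turned from 4 higher and 0 lower to 2 higher and 4 lower. Stat2 (0.65, limma adjusted p = 0.00232) and Jak1 (0.42, adjusted p = 0.000551) were still called higher, and Stat3 (0.12, adjusted p = 0.161) and Stat6 (0.18, adjusted p = 0.246) were not. The scaled fit called Stat5a (-0.38), Jak2 (-0.35), Jak3 (-0.34) and Stat4 (-0.29) lower (limma adjusted p = 0.00636, 0.0255, 0.00103 and 0.0283). As deposited, these 4 were not called. Their log2 differences were -0.11 for Stat5a (95% interval -0.37 to 0.16), -0.083 for Jak2 (-0.41 to 0.25), -0.073 for Jak3 (-0.22 to 0.079) and -0.023 for Stat4 (-0.28 to 0.24).

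Without DMSO TH17 replicate 3, Stat2 (0.65), Jak1 (0.54) and Stat3 (0.26) were called higher, Stat5a was called lower (-0.29, limma adjusted p = 0.013), and the Stat6 call ended (0.28, adjusted p = 0.0778). Fitted with these 2 groups alone, Stat3 (limma adjusted p = 0.0525) and Stat6 (0.0634) were no longer called.

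In Treg cultures Srci1 went with lower Stat3 and Jak3 and higher Jak1. Stat3 fell 1.76-fold, from 134.4 ± 5.21 to 76.5 ± 1.58 TPM (log2 difference -0.80 ± 0.1 SE, limma adjusted p = 5.53e-05), and Jak3 1.52-fold, from 109.2 ± 1.35 to 71.8 ± 3.18 TPM (-0.60 ± 0.071 SE, adjusted p = 3.43e-05). Jak1 rose 1.44-fold, from 75.8 ± 1.6 to 109.2 ± 1.27 TPM (0.52, limma adjusted p = 0.00523). Both STAT5 genes fell, Stat5a from 164.7 ± 12.2 to 126.3 ± 8.89 TPM and Stat5b from 75.9 ± 1.86 to 60.6 ± 3.36 TPM (-0.38 and -0.32, limma adjusted p = 0.0365 and 0.0381).

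This made 1 member higher and 4 lower, where 27.2% of tested genes were called, 17.1% higher and 10% lower. The members' median was -0.32 and that of all tested genes 0.11. Stat2 (-0.43, 95% interval -0.80 to -0.048), Jak2 (-0.30, interval -0.63 to 0.029), Stat4 (-0.24, interval -0.50 to 0.019) and Stat6 (0.20, interval -0.089 to 0.50) were not called (limma adjusted p = 0.0881, 0.164, 0.158 and 0.29).

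The STAT5 calls were close to the threshold. Leaving out any 1 of the 6 Treg libraries ended both, with limma adjusted p from 0.0502 to 0.126 for Stat5a and from 0.0533 to 0.118 for Stat5b, and so did testing without a filter on low values (0.0741 and 0.0686). After median-of-ratios scaling or with the 2 Treg groups alone, 1 member was higher and 7 lower. The scaled values of the added ones were -0.55 for Stat2, -0.43 for Jak2 and -0.36 for Stat4 (limma adjusted p = 0.0087, 0.0125 and 0.0112). Stat2 was also called lower when DMSO TH17 replicate 3, which enters only through the shared spread, was left out (adjusted p = 0.0115).

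The Srci1 effects in TH17 and Treg cultures differed for 4 members, all more positive in TH17 cultures, where 14.2% of tested genes were called for this difference (11.3% more positive in TH17 and 2.95% more negative). For Stat3 the effects were 0.39 in TH17 and -0.80 in Treg cultures, a difference of 1.19 ± 0.14 SE (limma adjusted p = 9.83e-05). For Stat2 they were 0.90 and -0.43, a difference of 1.33 ± 0.25 SE (adjusted p = 0.00279). For Jak3 they were -0.073 and -0.60, differing by 0.53 ± 0.1 SE (limma adjusted p = 0.00305), and for Stat5b 0.21 and -0.32, differing by 0.53 ± 0.15 SE (adjusted p = 0.0303). The median of this difference over all tested genes was 0.13, and after median-of-ratios scaling the same 4 were called, at 1.19 for Stat2, 1.04 for Stat3, 0.39 for Stat5b and 0.38 for Jak3. Jak1 was higher with Srci1 in both cultures, and the difference of its effects was 0.17 (95% interval -0.19 to 0.53). Those of Stat4 (0.22, interval -0.15 to 0.59), Stat5a (0.27, -0.10 to 0.65), Stat6 (0.25, -0.17 to 0.66) and Jak2 (0.22, -0.25 to 0.69) were not called either. The Stat5b difference was not called without Srci1 TH17 replicate 3 (limma adjusted p = 0.0761), any DMSO Treg replicate (0.0547, 0.0673 and 0.0557) or Srci1 Treg replicate 1 or 3 (0.0764 and 0.0559), nor without a filter on low values (0.0556).

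**Figure D3:**
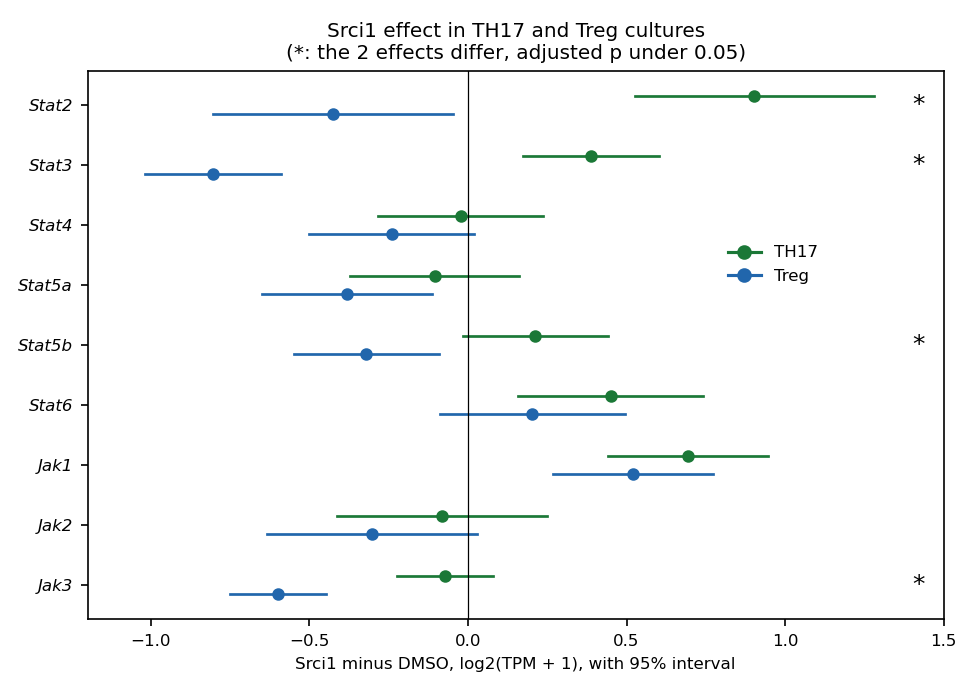
Srci1 minus DMSO on the log2(TPM + 1) scale (horizontal axis) with 95% intervals for each of the 9 genes, in TH17 cultures (green) and Treg cultures (blue); asterisks mark genes whose effects differed at an adjusted p under 0.05. For Stat3 and Stat2 the points lie on opposite sides of 0 (0.39 and -0.80, 0.90 and -0.43), and for Jak1 both lie to the right (0.69 and 0.52).

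Between the DMSO cultures, Treg held more Stat2 and Stat6 and less Jak3 than TH17, with 3 of 9 members called where 44.8% of tested genes were (32.3% higher, 12.5% lower). Stat2 was 2.37-fold higher in Treg, 35 ± 0.65 against 14.8 ± 4.47 TPM (log2 difference 1.23 ± 0.18 SE, limma adjusted p = 6.84e-05). Stat6 was 135.4 ± 3.46 against 95.6 ± 18.3 TPM (0.52, adjusted p = 0.00701), and Jak3 109.2 ± 1.35 against 140.5 ± 11.6 TPM (-0.36, adjusted p = 0.00101). Stat3, whose level is given above, was not called (0.16, 95% interval -0.052 to 0.38). Without DMSO TH17 replicate 3 these 3 calls stood (0.98, 0.35 and -0.42), and Stat5a (-0.40, limma adjusted p = 0.00138) and Stat5b (-0.32, adjusted p = 0.00598) were called lower in Treg. Median-of-ratios scaling gave 2 members higher and 4 lower, with Jak3 at -0.58, Stat6 at 0.30, and Stat5a (-0.44), Stat5b (-0.39) and Jak1 (-0.19) called lower. It turned the sign of Jak1, Jak2, Stat3 and Stat4, none of which was called as deposited.

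Srci1 and knockout TH17 libraries were also compared directly. This comparison, like those of Srci1 and of the knockout with DMSO TH17, shares libraries with the others, so their values are given side by side only. With Srci1, 8 of 9 members were higher and none was lower, where 49.1% of tested genes were called, 30.6% higher and 18.4% lower. Stat3, the gene deleted in the knockout, was 4.59-fold higher (log2 difference 2.17), Jak3 2.65-fold (1.39 ± 0.071 SE, limma adjusted p = 1.36e-09) and Stat4 2.37-fold (1.18 ± 0.12 SE, adjusted p = 2.14e-06). Stat5a, Stat6, Jak1 and Stat5b were 1.42-, 1.38-, 1.35- and 1.33-fold higher (limma adjusted p = 0.00388, 0.0103, 0.0076 and 0.00537). Jak2 just passed (0.40, limma adjusted p = 0.0454), and 15 of 20 alternative settings ended that call, with adjusted p up to 0.17. After median-of-ratios scaling 7 members were higher and none lower, with Jak2 at 0.27 (limma adjusted p = 0.0573). The Stat6 call ended without knockout replicate 1 (0.0543). Stat2 was 27.7 ± 2.85 against 22.4 ± 3.39 TPM and was not called (0.30, limma adjusted p = 0.171), but was without DMSO TH17 replicate 3 (adjusted p = 0.0366).

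The balance within the families moved as well. The 6 STAT genes summed to 538 ± 98.3 TPM in DMSO TH17, 616.9 ± 13.2 TPM in Srci1 TH17, 360.5 ± 31.5 TPM in knockout, 574.7 ± 10.9 TPM in DMSO Treg and 470.5 ± 28.6 TPM in Srci1 Treg libraries. Stat3 made up 22.6 ± 0.83% of that sum in DMSO TH17, 25.5 ± 0.27% in Srci1 TH17, 9.51 ± 0.91% in knockout, 23.4 ± 1.25% in DMSO Treg and 16.3 ± 0.76% in Srci1 Treg libraries. These shares do not depend on the scaling between libraries, and Stat3 took 22 to 23.5% of the sum over the 3 DMSO TH17 libraries, the highest in replicate 3. Deleting Stat3 itself lowers the sum in the knockout and so raises the shares of the other members there. The share of Stat6 ran from 17.7 ± 0.28% in DMSO TH17 to 33.2 ± 1.7% in Srci1 Treg libraries. That of Stat2 was 2.71 ± 0.41% in DMSO TH17, 6.09 ± 0.11% in DMSO Treg and 6.19 ± 0.47% in the knockout. Its level was 35 TPM in DMSO Treg and 22.4 TPM in the knockout. Stat3 was 0.43 ± 0.023 of Stat5a and Stat5b combined in DMSO TH17 and 0.57 ± 0.023 with Srci1. In Treg cultures it was 0.56 ± 0.046 with DMSO and 0.41 ± 0.023 with Srci1. With Srci1 this ratio was thus higher in TH17 and lower in Treg libraries, without overlap in either culture.

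Among the kinases, Jak3 was on average the largest part of the 3-gene sum in DMSO TH17 (50.7 ± 4.11%), Srci1 TH17 (42.6 ± 3.51%) and DMSO Treg (43.5 ± 0.84%), and Jak1 in the knockout (48.6 ± 0.87%) and Srci1 Treg (46.6 ± 0.96%). The ratio of Jak1 to Jak3 was 0.53 ± 0.081 in DMSO TH17, 0.91 ± 0.12 in Srci1 TH17 and 1.78 ± 0.14 in knockout libraries. In Treg cultures it was 0.69 ± 0.011 with DMSO and 1.52 ± 0.071 with Srci1. No library with Srci1 overlapped its own DMSO group in this ratio.

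**Figure D4:**
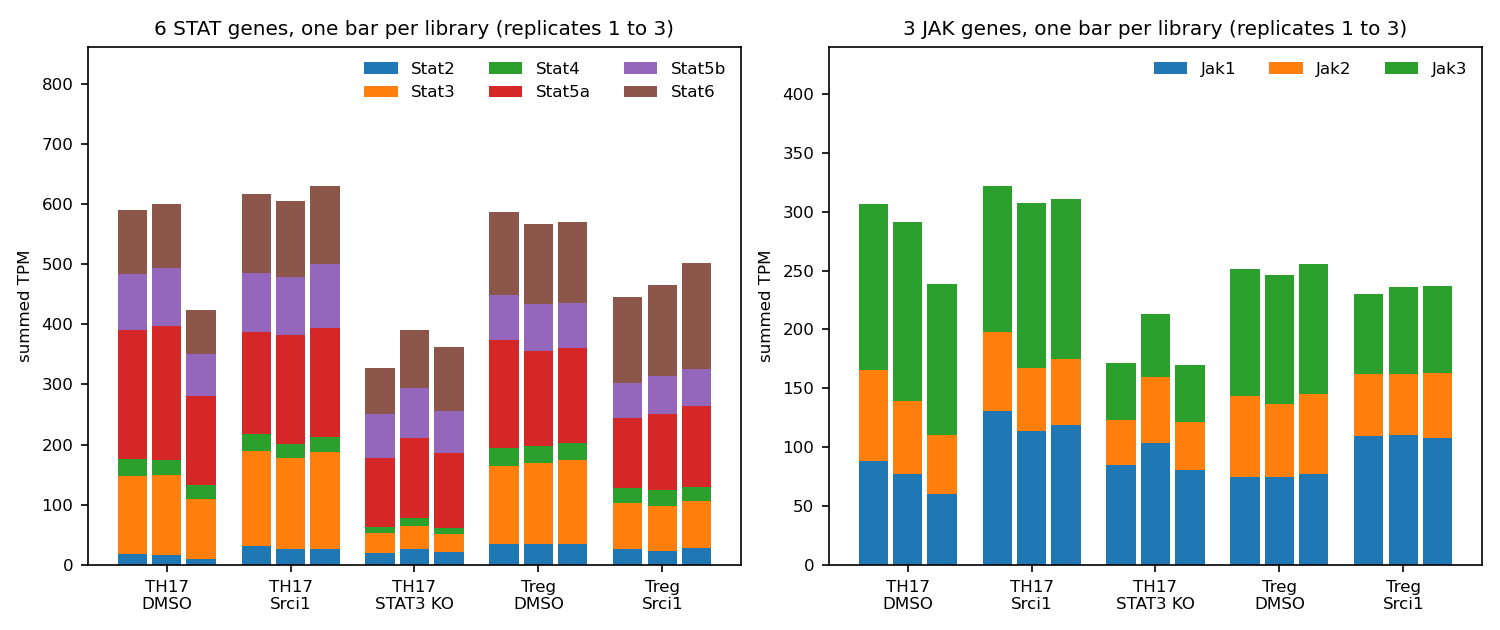
Summed TPM (vertical axis, starting at 0) of the 6 STAT genes and of the 3 JAK genes in each of the 15 libraries, stacked by gene and grouped by culture. Knockout libraries, in which Stat3 was deleted, have the lowest STAT sums together with DMSO TH17 replicate 3 near them at 424.5 TPM. The Jak1 part exceeds the Jak3 part in all knockout and Srci1 Treg libraries and in Srci1 TH17 replicate 1 (ratio 1.045).

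Across the 15 libraries the levels of some members were alike, which is given as a description since the libraries share groups. They include the 3 knockout libraries, so the deletion of Stat3 enters its correlations, and genes low in the knockout look like it. Over the 4 wild-type groups, means of Stat3 ran from 76.5 to 157.2 TPM and those of Stat4 only from 24.6 to 29.3 TPM. Correlations without the knockout were not computed. Stat3 was closest to Jak3 (Pearson r = 0.94 on log2(TPM + 1)) and Stat4 (0.905), and Stat5a to Jak3 (0.881) and Stat5b (0.792). Stat2 was closest to Stat6 (0.719) and near 0 with Stat5b (0.0048). Jak1 was at most 0.513, with Stat6. Among 8546 other named genes with a mean of at least 5 TPM, those most like Jak3 were Rhbdf2 (0.992), Junb (0.986) and Slc37a4 (0.986), and those most like Stat3 were Tes (0.987), Arid3a (0.983) and P4ha1 (0.981). For Stat4 they were Camk4 (0.978), Tcp1 (0.974) and Mpp6 (0.973), and for Stat2 Zc3hav1 (0.948), Spag9 (0.93) and Helz2 (0.926). Jak1 was most like Glyr1 (0.977), Dnm2 (0.969) and Tmem131 (0.965), and Jak2 like Aebp2 (0.956), Slc4a7 (0.944) and Exoc2 (0.93). Stat5a was most like Gys1 (0.938), Slc41a1 (0.935) and Ptgfrn (0.93), Stat5b like Igf1r (0.948), Zfp36l2 (0.939) and Hacd3 (0.937), and Stat6 like Papola (0.954), Gstcd (0.954) and Mtpap (0.948).

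The other genes of the pathway were read from 7 lists, which share some genes. No list was tested as a set, and the counts are to be read beside the shares of all tested genes called. These were 30.9% higher and 18.9% lower in the knockout. With Srci1 they were 33.8% and 7.08% in TH17 and 17.1% and 10% in Treg cultures. Of 14 tested cytokine ligand genes, 9 were lower and 2 higher in the knockout, with a list median of -1.77 against 0.13 for all tested genes. Il21, whose product signals through JAK1, JAK3 and STAT3, was listed at 0 in the 3 knockout libraries and at 205.3 ± 35.5 TPM in DMSO TH17, and Lif fell from 121.4 ± 22.7 to 4.29 ± 0.94 TPM and Osm from 41.1 ± 1.72 to 12.1 ± 1.03 TPM. With Srci1, 7 were lower and 5 higher in TH17 (median -0.59) and 8 lower and 1 higher in Treg cultures (median -0.73), against all-gene medians of 0.21 and 0.11. Csf2, which encodes GM-CSF, fell from 26.3 ± 1.85 to 7.82 ± 0.45 TPM in Treg cultures.

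Of 22 tested receptor chains, 12 were lower and 5 higher in the knockout (median -0.37). Ifngr2 fell from 18.6 ± 0.85 to 2.91 ± 0.18 TPM and Il4ra, a partner of the common gamma chain, from 222.4 ± 30.9 to 63.2 ± 1.46 TPM. In TH17 cultures with Srci1, 13 were higher and 2 lower (median 0.29), which median-of-ratios scaling changed to 8 and 5. Il6st, the signalling chain of the IL-6 receptor, rose from 5.95 ± 2.24 to 23.9 ± 1.08 TPM, Ifnar1 from 23.1 ± 3.85 to 46.7 ± 3.42 TPM and Il10rb from 22.8 ± 1.82 to 41.7 ± 1.97 TPM. In Treg cultures 6 were higher and 6 lower with Srci1 (median 0.048), among the latter the IL-12 receptor chain Il12rb2 (54.8 ± 2.61 to 9.67 ± 0.73 TPM) and Ifngr1 (148.6 ± 5.53 to 94.1 ± 4.24 TPM).

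Of 18 inhibitors of the pathway (SOCS, PIAS and phosphatase genes), 5 were lower and 7 higher in the knockout (median 0.17), and 4 higher and 7 lower after scaling. The feedback inhibitor gene Socs3 fell from 82.5 ± 5.27 to 10.2 ± 0.55 TPM, Cish, a STAT5 target, from 216.7 ± 13.5 to 64.3 ± 3.25 TPM and Socs2 from 194.8 ± 17 to 73.5 ± 10.9 TPM. With Srci1 in TH17 cultures 13 were higher and 2 lower (median 0.46), or 5 and 3 after scaling, with Socs3 at 154.8 ± 3.58 TPM and Socs2 at 338.3 ± 15.3 TPM, while Socs1 fell from 65.2 ± 11 to 43 ± 3.04 TPM. In Treg cultures 3 were higher and 1 lower with Srci1 (median 0.11), which turned to 2 higher and 4 lower after scaling, and Socs3 was 29 ± 0.96 against 29.1 ± 1.52 TPM.

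Genes known as STAT3 targets were lower in the knockout in 14 of 15 cases, with none higher (median -2.38). Of all tested genes, 18.9% were called lower there (median 0.13). All 15 were higher with Srci1 than in the knockout (median 1.94), where 30.6% of all tested genes were (median 0.11). With Srci1 against DMSO in TH17 cultures 7 were lower and 4 higher (median -0.33), or 9 and 3 after scaling. Il17f fell from 2551 ± 111 to 531.3 ± 18.1 TPM and Pim1 was 548.7 ± 15.5 against 392.2 ± 36 TPM, beside the Stat3 rise given above. In Treg cultures, where Stat3 fell with Srci1, 7 of the 15 were lower and 2 higher (median -0.086). The AP-1 gene Fosl2 fell from 42.5 ± 1.21 to 5.96 ± 0.72 TPM and Batf, another AP-1 family gene, was among the 2 that rose. Of 13 STAT5 targets, 10 were lower and 1, Foxp3, higher in the knockout (median -0.89), 8 higher and 2 lower with Srci1 in TH17 (median 0.31, with 5 and 5 after scaling) and 5 higher and 3 lower in Treg cultures (median 0.18).

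Interferon-response genes are known targets of STAT2. Of 12 on the list, 8 passed the filter. In DMSO Treg, 7 were called higher and none lower than in DMSO TH17 (median 1.52), where 32.3% and 12.5% of all tested genes were. With Srci1 in Treg cultures 7 were lower and none higher (median -1), against 10% and 17.1% of all tested genes. Mx1 passed the filter only through DMSO Treg (2.93 to 6.28 TPM, at most 0.7 TPM elsewhere), so its calls in comparisons with that group were favoured in advance. In DMSO TH17, Ifit3, Oasl2 and Usp18 stood at only 0.13, 0.063 and 0.83 TPM. In the knockout 5 were higher and 1 lower (median 0.94), beside the B cell, myeloid and Cd8a values given above, whose part was not tested. With Srci1 in TH17 cultures 1 was higher and none lower (median 0.15, against 0.21 for all tested genes), which turned to 0 higher and 1 lower after scaling. The difference of the Srci1 effects between cultures was called for 6 of 8, all more positive in TH17 (median 1.13), as for 11.3% of all tested genes. Irf7 held 2.42 ± 0.49 TPM in DMSO TH17, 3.18 ± 0.22 in Srci1 TH17, 10.5 ± 2.34 in knockout, 15.1 ± 1.11 in DMSO Treg and 6.42 ± 0.44 TPM in Srci1 Treg libraries. Irf9, which forms a DNA-binding complex with STAT2, held 19.1 ± 2.18, 23.4 ± 1.94, 45.1 ± 3.02, 35.4 ± 2.31 and 26.9 ± 2.82 TPM in the same order. The orders differed in part, since Irf9 was highest in the knockout and Stat2 in DMSO Treg.

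Of 10 tested TH1 and TH2 genes linked to STAT4 and STAT6, 4 were higher and 5 lower in the knockout (median -0.72). Of all tested genes, 30.9% were called higher and 18.9% lower there (median 0.13). The TH1 factor gene Tbx21 was at 21.9 ± 2.71 against 0.6 ± 0.13 TPM, beside the B cell, myeloid and Cd8a values given above, whose part was not tested. Furin fell from 276.2 ± 49.2 to 43.2 ± 6.17 TPM. In Treg cultures with Srci1, 6 were lower and 2 higher (median -0.94), with Tbx21 down from 45 ± 1.72 to 11.8 ± 1.46 TPM. With Srci1 in TH17 cultures 4 were higher and 1 lower (median 0.11), or 3 and 3 after scaling, and the TH2 factor gene Gata3 rose from 4.36 ± 0.64 to 11.9 ± 1.67 TPM.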

How the data were processed

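RNA was measured in 15 poly(A) libraries of mouse CD4 T cells, 3 in each of 5 groups taken from the labels. The authors deposited TPM values for 55421 gene IDs, with 2 decimals. STAR 2.7.9a, RSEM 1.3.3 and GRCm38 are named per the submitters' processing notes, with no role stated. The annotation, strand setting, filters and sequencing depth are not given in the sources read here. Symbols matched 55154 IDs. Coordinates are 1-based from GENCODE M21 on GRCm38, and promoters from RefSeq on GRCm38.p6.

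limma 3.58.1 (R 4.3.3, variance trend) was fitted to log2(TPM + 1) of the 12800 genes that reached 1 TPM in 3 or more libraries, as 5 group means over all 15 libraries with 10 residual degrees of freedom. Fold changes on this scale understate changes of low genes. Calls are at a Benjamini-Hochberg adjusted p under 0.05 over all tested genes. The script was tested on simulated data. Alternatives comprised a pseudocount of 0.1, testing without a filter (23425 genes), median-of-ratios scaling, the compared groups alone, the replicate number as a block and each library left out in turn, 20 settings in all.

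Named genes were the 9 members, up to 3 called genes of smallest adjusted p per pathway list and comparison, the 3 genes most correlated with each member, and defining markers. The members and lists were chosen with earlier results of these data known.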

Additional observations from a re-analysis of the deposited data

Results flagged for a closer look

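The Srci1 effect differed between TH17 and Treg cultures for 4 members, tested as the difference of the effects in limma (14.2% of tested genes were called). For Stat2 the TH17 effect exceeded the Treg effect by 1.329 on the log2(TPM + 1) scale, with Srci1 libraries above DMSO in TH17 and below DMSO in Treg cultures. For Stat3 the excess was 1.192, again with opposite directions and no overlap in either culture. The Stat2 fall in Treg cultures was not called (limma adjusted p = 0.0881). The Stat3 rise in TH17 cultures was not called after median-of-ratios scaling (limma adjusted p = 0.161) or with the compared groups alone (0.0525). Of all tested genes, 48.9% did not overlap between Srci1 and DMSO in TH17 and 50.3% in Treg cultures. Stat5b differed by 0.5328, a call that 7 of 20 settings ended, and Jak3 by 0.5264, with a fall in Treg cultures and no call in TH17 cultures. Without DMSO TH17 replicate 3 the differences were 1.08 for Stat2, 1.06 for Stat3, 0.39 for Stat5b and 0.47 for Jak3, and all 4 were still called.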

How the results depend on the processing

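The 9 members in 6 comparisons gave 54 results, recomputed under 20 settings. Of the 30 called results 21 kept their call in every setting and none changed sign, while 48 of the 1080 values lost a call, 20 gained one and 14 changed sign from a value that was not called. Median-of-ratios scaling turned Stat5b with Srci1 in TH17 (-0.05824) and, between DMSO Treg and TH17, Stat3 (-0.05612), Stat4 (-0.03889), Jak1 (-0.1909, limma adjusted p = 0.045) and Jak2 (-0.1314), and it gave 8 called members with Srci1 in Treg and 6 between DMSO Treg and TH17. The compared groups alone gave 2 called members with Srci1 in TH17 and 8 in Treg cultures, and testing without a filter gave 3 in Treg. With 1 library left out, values with Srci1 in TH17 ran from -0.09335 to 0.05849 for Stat4, from -0.2933 to 0.001616 for Stat5a and from -0.2368 to 0.07188 for Jak2. Stat6 in the knockout ran from -0.1933 to 0.107, and between DMSO Treg and TH17 Jak1 ran from -0.1221 to 0.1478 and Jak2 from -0.06744 to 0.2413. Called members then ran from 3 to 6 with Srci1 in Treg and from 3 to 5 between DMSO Treg and TH17, the 5 without DMSO TH17 replicate 3. The causes of these changes were not tested. Sequencing depth is unknown, so it sets no stated limit.

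Same-numbered libraries did not deviate together (30 pairs, r from -0.17 to 0.13, 2 over 0.1). With 3 libraries a group this check cannot show whether same-numbered cultures shared an animal, which the labels do not name. The replicate block gave 4 called members with Srci1 in TH17, 6 in the knockout, 5 with Srci1 in Treg, 3 between DMSO cultures, 4 for the difference of Srci1 effects and 7 for Srci1 TH17 against knockout, where Jak2 was no longer called (limma adjusted p = 0.054).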

Other observations

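Pathway genes also differed between the DMSO cultures, in which Stat3 itself was not called. Of 15 STAT3 target genes 13 were lower in Treg than in TH17 and none was higher (median -1.43, against 0.18 for all tested genes). Of all tested genes, 12.5% were called lower and 32.3% higher in Treg. Socs3 stood at 29.1 ± 1.52 against 82.5 ± 5.27 TPM. Of 22 receptor chains 11 were higher and 4 lower in Treg (median 0.27), or 10 and 7 after median-of-ratios scaling. The interferon receptor gene Ifnar1 was at 63.6 ± 4.46 against 23.1 ± 3.85 TPM and Il23r, the IL-23 receptor chain that works with JAK2, at 0.077 ± 0.068 against 7.29 ± 2.86 TPM. Gzmb, which encodes granzyme B and is read here as a STAT5 target, was at 1279 ± 30.7 TPM in DMSO Treg, 476.6 ± 18.9 TPM in Srci1 Treg and 6.84 ± 0.29 TPM in DMSO TH17, with 43.7 ± 2.17 TPM in Srci1 TH17.

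Stat5a exceeded Stat5b by a ratio that also varied. It was 2.23 ± 0.11 in DMSO TH17, 1.79 ± 0.097 in Srci1 TH17 and 1.67 ± 0.1 in knockout libraries (SD, n = 3), with DMSO TH17 above all libraries of the other 2 TH17 groups. In Treg cultures it was 2.17 ± 0.2 with DMSO and 2.08 ± 0.12 with Srci1, and these overlapped. Because the 2 genes share part of their sequence, the ratio rests partly on how shared reads were divided.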
